A study of Mus musculus with 6 samples.

Results

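Expression of 9 smooth muscle contractile genes was examined in dissected pharyngeal tissue from *Pax9*-null and wild-type mouse embryos: *Acta2*, *Tagln*, *Cnn1*, *Cnn2*, *Cald1*, *Lmod1*, *Mylk*, *Myl9* and *Myocd*. They were chosen by gene symbol from a list of 10 genes, of which *Myh11* was not analysed here, and they are 9 of the 14647 genes in the table. All 9 passed the filter on low values (a mean of at least 0.5 RPKM, reads scaled to gene length and to library size, over the 6 libraries), which left 13547 genes to be tested. RNA-seq was performed on 3 *Pax9*-null (*Pax9*-/-) and 3 wild-type (*Pax9*+/+) embryos at E9.5, matched for stage, of both sexes and on a C57Bl/6J background, with 1 library per embryo. The *Pax9* loss is constitutive, so that it affects every tissue of the mutant embryo, and neither group carried any other engineered allele. The dissected tissue reached from the border of the first and second arches to the base of the heart, and so could hold arch arteries, outflow tract and varying amounts of heart. In such bulk tissue, fewer cells of a type and less RNA per cell cannot be told apart.

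Smooth muscle cells are recruited around the pharyngeal arch arteries after the endothelial tube has formed, and in the arches most of them derive from the cardiac neural crest. Their contraction depends on smooth muscle actin filaments, on proteins that bind and regulate these filaments, and on a myosin motor that is switched on when its regulatory light chain is phosphorylated by myosin light chain kinase. Many of the genes are activated by serum response factor (SRF), which binds a short DNA element named the CArG box, together with the cofactor myocardin. Most of this programme is not exclusive to smooth muscle: the early heart tube transcribes *Acta2*, *Tagln*, *Cnn1* and *Myocd* too, before the adult division into cardiac and smooth muscle isoforms is made. The comparison of genotypes therefore asks about arterial smooth muscle at a stage at which cardiac cells carry the same transcripts.

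CArG boxes were sought in the promoter windows of RefSeq (GRCm38.p6), which held entries for 7 of the 9 genes in 8 windows. Each window spans 250 bases before to 50 after a transcript start, and only the 250 bases before the start were searched. A box was a pair of C bases, 6 bases of A or T and a pair of G bases, and this pattern reads the same on both strands. It was found in *Myl9* and *Cnn2*, and in 1.47% of all 32851 windows. With 1 G or C allowed in the 6 central bases, a search added after the sequences had been seen, it was also found in *Acta2*, and in 8.59% of all windows. Boxes of this wider kind occurred in pairs in *Acta2* and *Myl9*, and in 0.67% of windows. The boxes are shown because they are the element through which SRF and myocardin act on genes of this kind. Each is printed 5′ to 3′ on the strand of its gene, in capitals, with 10 bases on either side.
*Myl9*, chr2:156775293-156775322, plus strand: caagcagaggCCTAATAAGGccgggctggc
*Myl9*, chr2:156775355-156775384, plus strand: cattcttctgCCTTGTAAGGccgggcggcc
*Cnn2*, chr10:79988534-79988563, plus strand: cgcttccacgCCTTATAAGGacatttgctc
*Acta2*, chr19:34255438-34255467, minus strand: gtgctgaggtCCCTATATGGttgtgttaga
*Acta2*, chr19:34255388-34255417, minus strand: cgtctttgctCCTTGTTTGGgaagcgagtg
The *Myl9* boxes lie 161 to 152 and 99 to 90 bases upstream of the RefSeq start, the *Cnn2* box 56 to 47, and the *Acta2* boxes 84 to 75 and 34 to 25. The second *Myl9* box and both *Acta2* boxes hold the 1 permitted G or C. No such letters were present in the 250 upstream bases of the windows of *Cnn1*, *Cald1*, *Lmod1* and *Mylk*. A match is a description of sequence, not of SRF binding. *Tagln* and *Myocd* were not matched.

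The libraries had effective sizes between 11509903 and 12692324 reads, and *Pax9* itself was at 40.1% of its wild-type level in the null libraries (adjusted *P*=0.0155, limma). The third wild-type library stood apart from the other 5. Of 25 cardiomyocyte genes, 22 were at least 1 log2 unit lower in it than in every other library, whereas 1.41% of all tested genes were (191 genes). *Myl7*, an atrial myosin light chain, had log2 RPKM values of 9.53, 9.22 and 9.19 in the *Pax9*-null and 8.83, 9.23 and 4.55 in the wild-type libraries. *Tnnt2*, cardiac troponin T, had 3.96, 3.96 and 3.63 against 4.75, 4.41 and 0.29. *Actc1*, cardiac actin, had 9.17, 8.95 and 8.62 against 9.03, 9.14 and 5.37. The summed RPKM of the 25 genes was 158 in this library and between 1673 and 2161 in the others, and *Myl2*, which marks ventricular cardiomyocytes, had a log2 RPKM between 6.90 and 7.48 in 5 libraries and of −1.91 in this one. Endothelial genes did not show such a drop: the summed RPKM of 12 of them was 87.5 in this library, between 97.6 and 135 in the other wild-type libraries and between 78.8 and 93.9 in the null libraries. The smooth muscle genes were therefore compared with all 6 libraries and again without wild-type replicate 3.

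The 9 contractile genes ranged widely in level. Their mean RPKM over the 6 libraries was 218 for *Acta2*, 82.1 for *Cnn2*, 78.9 for *Myl9*, 18.4 for *Cald1*, 6.95 for *Cnn1*, 3.64 for *Myocd*, 2.20 for *Tagln*, 1.56 for *Lmod1* and 1.39 for *Mylk*. The ranges over the 6 libraries overlapped for every pair of neighbours in this order except *Myl9* with *Cald1* and *Cald1* with *Cnn1*. *Acta2* exceeded *Cnn2* in 5 of 6 libraries and fell below it in wild-type replicate 3. The sum over the 9 genes was 431, 444 and 377 RPKM in the null libraries and 547, 511 and 171 in the wild-type libraries, of which *Acta2* made up between 49.6 and 57.6% in 5 libraries and 28.3% in wild-type replicate 3. The third wild-type library was the lowest of the 6 for 7 of the 9 genes, and for 14.1% of all tested genes.

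**Figure D1:**
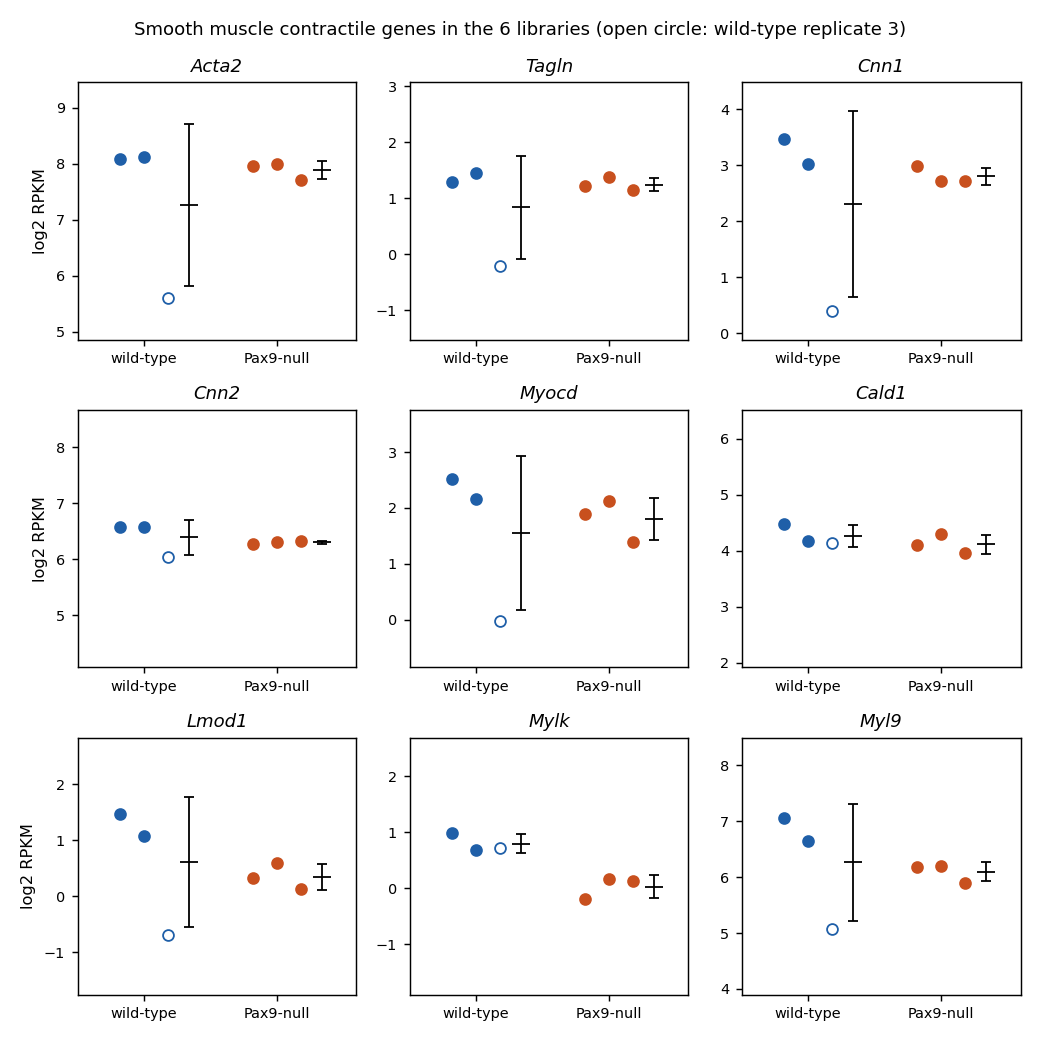
Level of each of the 9 smooth muscle contractile genes in log2 RPKM (vertical axis, with a range of equal span in every panel) for the 3 wild-type (blue) and 3 *Pax9*-null (orange) libraries; points are libraries, the open circle is wild-type replicate 3, and bars are the mean and SD of each genotype. The open circle is the lowest point for all but *Cald1* and *Mylk*, and *Mylk* alone has groups that do not overlap.

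With all 6 libraries, 1 of the 9 genes passed the threshold (an adjusted *P* of at most 0.1 by limma), and it was lower in *Pax9*-null embryos: *Mylk*. Over all tested genes, 26.7% passed and 12.0% were called lower. The median log2 fold change (*Pax9*-null over wild-type) of the 9 genes was −0.09, with 5 below 0, and over all tested genes it was 0.00, with 50.2% below 0. Without wild-type replicate 3, 3 of the 9 genes were called, all lower (*Lmod1*, *Mylk* and *Myl9*), against 15.8% of all tested genes called and 6.64% called lower. All 9 fold changes were then below 0, as were 51.0% of those of all tested genes, and the median was −0.45. Wild-type replicate 3 was the lowest library for 7 of the 9 genes and for 14.1% of all tested genes. Leaving it out lowers the fold changes of such genes by construction, so the share over all tested genes is not a like comparison. In 7 of the 9 genes, all but *Tagln* and *Cald1*, the 3 null libraries lay below both remaining wild-type libraries, as they did in 24.7% of all tested genes.

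The gene called with all libraries acts on the myosin motor. *Mylk* (ENSMUSG00000022836, chr16:34745210-35002420) encodes myosin light chain kinase. Its RPKM was 0.871, 1.12 and 1.10 in the *Pax9*-null libraries and 1.98, 1.61 and 1.64 in the wild-type libraries, from 102 to 255 reads per library. Every null library lay below every wild-type library, a pattern of full separation seen in 1 of the 9 genes and in 41.9% of all tested genes (20.1% with the null group lower), and wild-type replicate 3 was level with the second wild-type library. The log2 fold change of −0.77 (standard error 0.19) had an adjusted *P* of 0.0482 by limma and left 58.8% of the wild-type level, and the exact permutation test gave *P*=0.1, two-sided, the smallest that 3 against 3 libraries allow. Without wild-type replicate 3 the log2 fold change was −0.81 (adjusted *P*=0.0819). When dependence on gene length and on GC content was removed library by library, it was −0.30 (adjusted *P*=0.308). No contractile gene was called by limma after that step (0 had an unadjusted *P* under 0.05), and 3.72% of all tested genes were. The gene also passed no threshold without *Pax9*-null replicate 1 (0.177), *Pax9*-null replicate 3 (0.128) or wild-type replicate 1 (0.107), and over the alternatives that changed 1 setting the adjusted *P* ran from 0.0337 to 0.308. It was 0.406 when wild-type replicate 3 was left out and the length and GC dependence removed together. Gene-level values do not separate the long kinase from the short forms made from the same gene. Other genes overlap *Mylk* exons on the opposite strand, and the authors counted at the default settings of featureCounts, which ignore strand. Whether this overlap added to or took from the reads counted for *Mylk* was not tested.

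*Myl9* (ENSMUSG00000067818, chr2:156775420-156781658) encodes the regulatory light chain that the kinase phosphorylates. Its RPKM was 72.4, 73.5 and 59.5 in the null libraries and 134, 100.5 and 33.8 in the wild-type libraries (493 to 1970 reads). The null values lay between the 2 higher wild-type libraries and the third, so that the groups overlapped. The log2 fold change with all 6 libraries was −0.17 (standard error 0.45, adjusted *P*=0.813, 95% interval −1.21 to 0.86). Without wild-type replicate 3 it was −0.76 (standard error 0.16, adjusted *P*=0.0465, interval −1.13 to −0.40), a level of 58.8% of wild-type. Together with the removal of length and GC trends, that comparison gave −1.0, with an adjusted *P* just above the threshold (0.1002). No contractile gene was then called, and 2.2% of all tested genes were.

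Of the genes for actin and its binding proteins, *Acta2* (ENSMUSG00000035783, chr19:34241090-34255590), smooth muscle alpha-actin, was the most abundant. Its RPKM was 248, 256 and 208 in the *Pax9*-null libraries and 271, 278 and 48.3 in the wild-type libraries (1082 to 6132 reads). The other 5 libraries lay close together, within 0.42 on the log2 scale, and the third wild-type library lay 2.11 below the lowest of them. With all libraries the log2 fold change was fitted as 0.62 with a standard error of 0.61 (adjusted *P*=0.496, interval −0.80 to 2.03). It was −0.22 without wild-type replicate 3 (standard error 0.14, adjusted *P*=0.328, interval −0.55 to 0.11). *Acta2* was therefore not called under either, and the direction of the fitted value depended on 1 library. Of its words of 50 bases, 0.326% also occur in other genes, among them *Actg1*, a cytoplasmic actin.

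*Cnn1* (ENSMUSG00000001349, chr9:22099216-22109630) encodes calponin, which binds actin and restrains the myosin motor. Its RPKM was 7.91, 6.56 and 6.59 in the null and 11.2, 8.18 and 1.32 in the wild-type libraries (45 to 387 reads). Of the 9 genes it had the largest drop in wild-type replicate 3, 7.22-fold below the mean of the other wild-type libraries on the log scale. The log2 fold change was 0.50 with all libraries (adjusted *P*=0.641) and −0.45 without that library (adjusted *P*=0.131, interval −0.85 to −0.05). *Cnn2* (ENSMUSG00000004665, chr10:79988584-79996062), a calponin that is also made in non-muscle cells, varied far less. Its RPKM was 77.4, 78.8 and 80.7 against 95.3, 95.1 and 65.5 (2025 to 2975 reads), and its null libraries differed by little from each other. The log2 fold change was −0.09 (adjusted *P*=0.696), and −0.27 without wild-type replicate 3 (adjusted *P*=0.127, interval −0.50 to −0.04).

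*Tagln* (ENSMUSG00000032085, chr9:45929619-45936058) encodes transgelin (SM22), an actin-bundling protein and an early marker of smooth muscle. Its RPKM was 2.32, 2.60 and 2.21 in the null and 2.44, 2.75 and 0.861 in the wild-type libraries, from 21 to 67 reads. The null libraries lay within the range of the wild-type group, and without wild-type replicate 3 the groups still overlapped. The log2 fold changes were 0.40 (adjusted *P*=0.51) and −0.13 (adjusted *P*=0.661, interval −0.55 to 0.30). Genes on the opposite strand overlap 1241 and 108 bases of the *Tagln* exons, which hold 1988 bases. Whether this overlap added to or took from its 21 to 67 reads was not tested.

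*Cald1* (ENSMUSG00000029761, chr6:34598500-34775473) encodes caldesmon, which blocks the access of myosin to actin and has a form in non-muscle cells that the values do not separate. Its RPKM was 17.2, 19.6 and 15.5 against 22.4, 17.98 and 17.6 (2191 to 3420 reads). All libraries overlapped, and wild-type replicate 3 was close to replicate 2. The log2 fold changes were −0.15 (adjusted *P*=0.439) and −0.21 without wild-type replicate 3 (adjusted *P*=0.352, interval −0.54 to 0.13).

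*Lmod1* (ENSMUSG00000048096, chr1:135324807-135368065) encodes leiomodin, which nucleates actin filaments in smooth muscle. Its RPKM was 1.26, 1.51 and 1.09 in the null and 2.78, 2.1 and 0.615 in the wild-type libraries, from 30 to 139 reads. As with *Myl9*, the null values lay between the third wild-type library and the others. The log2 fold change was −0.27 with all libraries (standard error 0.52, adjusted *P*=0.742). Without wild-type replicate 3 it was −0.93 (standard error 0.24, adjusted *P*=0.0697, interval −1.47 to −0.38), which is 52.6% of wild-type. With the removal of length and GC trends added, that comparison gave −0.70 (adjusted *P*=0.164).

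*Myocd* (ENSMUSG00000020542, chr11:65176561-65269989), which encodes the SRF cofactor myocardin, had an RPKM of 3.73, 4.33 and 2.61 in the null and 5.76, 4.44 and 0.984 in the wild-type libraries (79 to 469 reads). The spread within genotypes was wide, with an SD of 0.38 on the log2 scale for the null libraries (*n*=3) and 1.38 for the wild-type libraries (*n*=3). The log2 fold changes were 0.25 (standard error 0.60, adjusted *P*=0.799) and −0.54 without wild-type replicate 3 (standard error 0.24, adjusted *P*=0.173, interval −1.10 to 0.02).

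**Figure D2:**
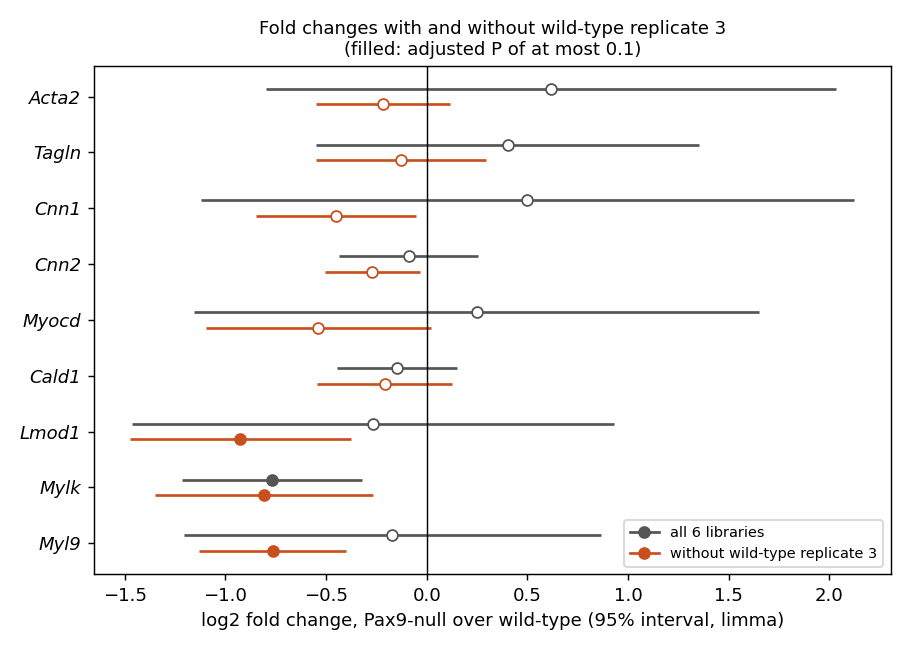
Log2 fold change of *Pax9*-null over wild-type embryos (horizontal axis) with its 95% interval by limma for each gene, with all 6 libraries (grey) and without wild-type replicate 3 (orange); filled points have an adjusted *P* of at most 0.1. Leaving out the library moves *Acta2*, *Tagln*, *Cnn1* and *Myocd* from above to below 0 and leaves *Mylk* near −0.8.

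The contractile genes differed in how low they were in wild-type replicate 3. *Acta2*, *Tagln*, *Cnn1* and *Myocd* were at least 1 log2 unit below every other library in it (1.41% of all tested genes were), and lay between 3.01-fold and 7.22-fold below the mean of the other wild-type libraries. *Lmod1* (3.94-fold) and *Myl9* (3.43-fold) were also lowest there, but by less than 1 log2 unit below the next library. *Cnn2*, *Cald1* and *Mylk* changed by between 1.09-fold and 1.45-fold. The median difference of wild-type replicate 3 from the other wild-type libraries was −1.78 on the log2 scale for the 9 contractile genes, −4.36 for the 25 cardiomyocyte genes, −0.41 for 12 endothelial genes and 0.00 for all tested genes. The drop of *Acta2* (5.69-fold) was smaller than that of *Actc1* (13.1-fold), so that the ratio of *Acta2* to *Actc1* was between 0.430 and 0.528 in 5 libraries and 1.17 in wild-type replicate 3. The ratio of *Cnn2* to *Cnn1* was between 8.54 and 12.2 in 5 libraries and 49.5 in that library.

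**Figure D3:**
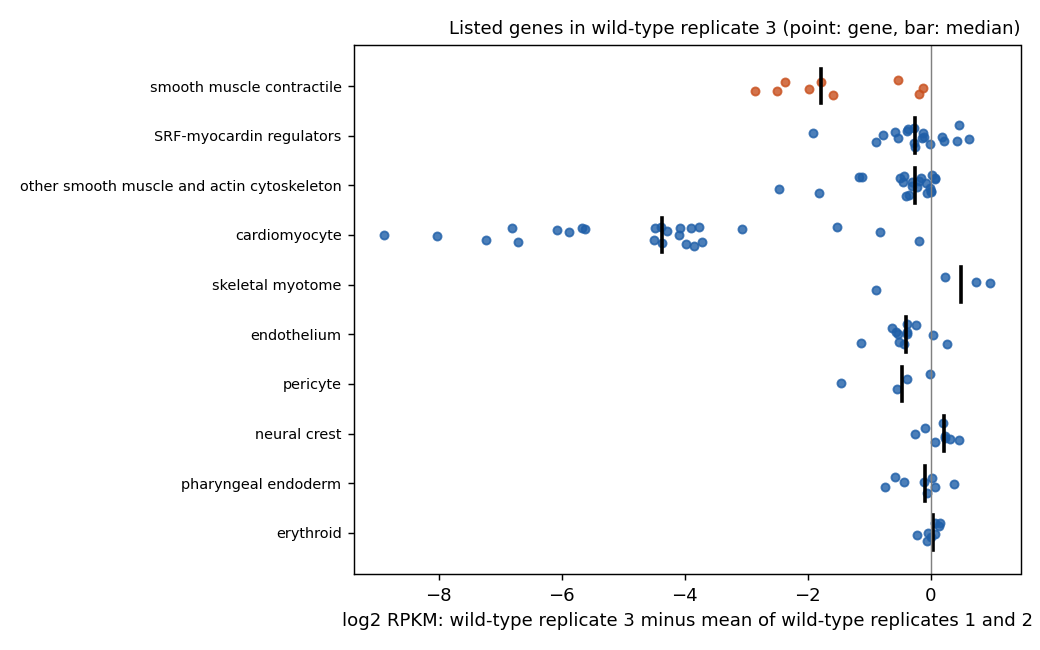
Difference in log2 RPKM of wild-type replicate 3 from the mean of wild-type replicates 1 and 2 (horizontal axis), with 1 point per tested gene and the median as a bar, for the contractile genes (orange) and the other gene lists (blue). The median of the contractile genes, −1.78, lies between that of the cardiomyocyte list, −4.36, and that of the endothelial list, −0.41. *Cald1* and *Mylk*, at −0.19 and −0.13, lie above the endothelial median.

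A fit was made with the mean log2 RPKM of the cardiomyocyte genes as a covariate. This mean was 4.62, 4.45 and 4.35 in the *Pax9*-null and 4.97, 4.75 and 0.22 in the wild-type libraries. Wild-type replicates 1 and 2 thus lay above every null library, and leaving out replicate 3 does not level this mean between genotypes. The summed RPKM of the same genes overlapped, with 2161, 1818 and 1673 in the null libraries and 1906 and 1991 in those wild-type libraries. The fit gave a median of −0.22 for the 9 genes, between that with all libraries (−0.09) and that without wild-type replicate 3 (−0.45). *Acta2* and *Tagln* had log2 fold changes of −0.01 (adjusted *P*=0.978, interval −0.30 to 0.29) and 0.01 (adjusted *P*=0.979, interval −0.42 to 0.44). *Lmod1* (−0.76, adjusted *P*=0.0719), *Mylk* (−0.80, adjusted *P*=0.0652) and *Myl9* (−0.62, adjusted *P*=0.0413) were called lower. Over all tested genes, 9.32% were called lower with the covariate. *Cnn1* (−0.22), *Cnn2* (−0.22), *Cald1* (−0.20) and *Myocd* (−0.35) were not called. The covariate rests mainly on 1 library, and the part of heart tissue in each gene's level was not tested.

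Likeness of pattern was measured as the root mean square difference of log2 values over the 6 libraries, each gene being centred on its own mean. The values were not scaled, so this distance depends on how far a gene falls as well as on the shape of its profile. A gene that falls in the same library as a list, but less far, is not near that list by this measure. Each gene was set beside the mean profiles of the 9 other gene lists. *Cnn1* (0.683) and *Acta2* (0.766) were nearest to the cardiomyocyte profile, and lay 0.982 and 0.881 from the mean of all tested genes. *Myocd* (0.687), *Lmod1* (0.475) and *Myl9* (0.427) were nearest to the pericyte profile, which rests on 4 genes, with the other smooth muscle and actin cytoskeleton list next (0.720, 0.517 and 0.461). These genes lay 0.821, 0.689 and 0.611 from the mean of all tested genes. In wild-type replicate 3 they stood at −1.70, −1.18 and −1.10, and the pericyte profile only at −0.20. *Tagln* (0.522), *Cnn2* (0.117) and *Cald1* (0.082) were nearest to the SRF-myocardin regulators, and *Mylk* (0.254) to the endothelial genes. The last 4 were about as near to several other lists, and lay 0.557, 0.180, 0.170 and 0.423 from the mean of all tested genes. Nothing particular to 1 list can therefore be read from them. In wild-type replicate 3 *Tagln* stood at −1.26, and the mean of the SRF-myocardin regulators at −0.12. Of single genes, the nearest to *Acta2* were *Tnni2* (0.088), a troponin of fast skeletal muscle, *Rassf5* (0.098), *Wdr93* (0.109), *Atp1b1* (0.135) and *Rbm24* (0.163), an RNA-binding protein of heart and skeletal muscle. The nearest to *Tagln* were *Plac8*, *Fxyd1*, *Fbxl22*, *Crip1* and *Pdlim3* (0.123 to 0.144). Those to *Cnn1* were *Tcea3*, *Pirt*, *Ccdc141*, *Smyd1* and *Klhl31* (0.170 to 0.214), of which *Smyd1* encodes a methyltransferase of striated muscle. Those to *Myocd* were *Enpep*, *Ppargc1a*, *Ccdc141*, *Kcnmb1* and *Sphkap* (0.090 to 0.146), of which *Kcnmb1* encodes a potassium channel subunit of smooth muscle. Neither a contractile gene nor a gene of the cardiomyocyte list was among these 19 genes. The low value in wild-type replicate 3 that they share with the 4 genes follows from the choice by likeness.

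**Figure D4:**
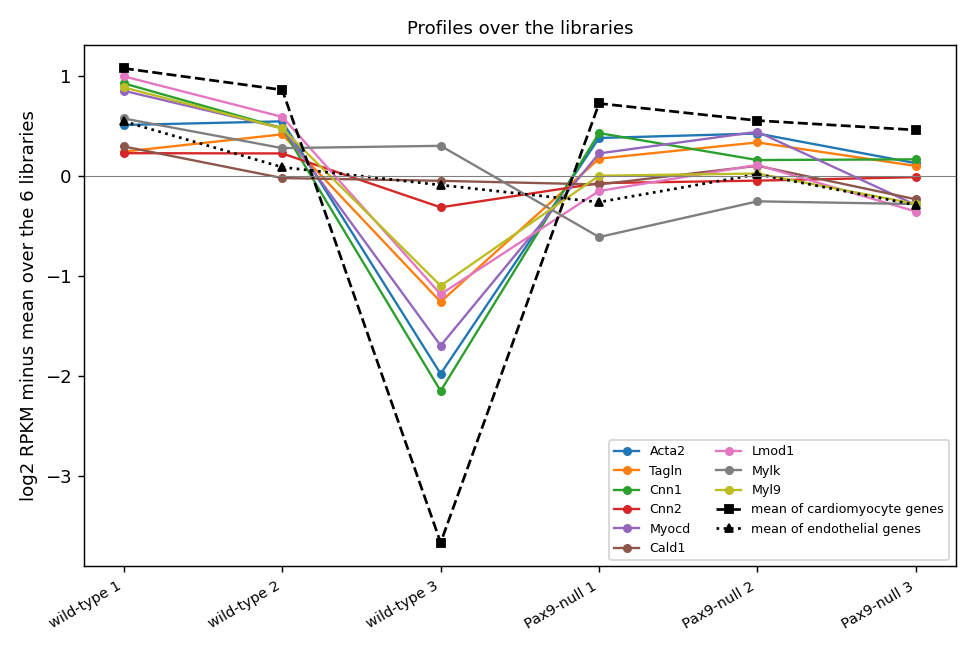
Log2 RPKM of each contractile gene minus its mean over the 6 libraries (vertical axis), by library, with the mean profiles of 25 cardiomyocyte genes (dashed) and 12 endothelial genes (dotted). *Acta2* and *Cnn1* fall to −1.98 and −2.15 in wild-type replicate 3, where the cardiomyocyte mean falls further, while *Mylk*, *Cald1* and *Cnn2* stay within 0.32 of their means there.

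Regulators of SRF and myocardin, and of other signals that act on smooth muscle, were mostly not called. Of 19 genes, 3 were lower: *Mkl2* (−0.83, adjusted *P*=0.0482) and *Mkl1* (−0.67, adjusted *P*=0.0819), which encode SRF cofactors that enter the nucleus when actin polymerizes, and *Notch3* (−0.77, adjusted *P*=0.045), a receptor of mural cells. That is 15.8% of the list, near the 12.0% of all tested genes called lower. The median of the 19 was −0.08, and −0.13 without wild-type replicate 3. Called there were *Mkl2*, *Notch3* and *Tgfb1i1*, all lower (6.64% of all tested genes were called lower). *Srf* itself had −0.15 (adjusted *P*=0.386). A further list of 24 smooth muscle and actin cytoskeleton genes had 22 tested members (*Actg2* and *Aoc3* were not analysed), of which 9 (40.9%, against 12.0% of all tested genes) were called lower and 1 higher (*Tpm4*, a tropomyosin, 0.28, adjusted *P*=0.0985). The largest were *Tln1* (−0.95, adjusted *P*=0.0618), which encodes talin of focal adhesions, *Myh9* (−0.95, adjusted *P*=0.0661), a non-muscle myosin heavy chain, and *Smtn* (−0.95, adjusted *P*=0.0388), which encodes smoothelin of contractile smooth muscle. The median of this list was −0.32, and −0.46 without wild-type replicate 3, again with 9 called lower (6.64% of all tested genes were). With length and GC trends removed, no gene of either list was called by limma, and 3 and 6 of them had an unadjusted *P* under 0.05.

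No cardiomyocyte gene was called with all 6 libraries by limma (1 of 25 had an unadjusted *P* under 0.05), with a median log2 fold change of 1.07. Without wild-type replicate 3 the median was −0.32. In that comparison 7 genes were called lower (6.64% of all tested genes were), among them *Tnnt2* (−0.73, adjusted *P*=0.0486). Called higher was 1 gene, *Nppb* (0.55, adjusted *P*=0.0869), which encodes a natriuretic peptide. The median of the contractile genes moved in the same direction, from −0.09 to −0.45. Wild-type replicate 3 was the lowest library for 24 of 25 cardiomyocyte and 7 of 9 contractile genes. The shared direction therefore follows from leaving it out and is not read as a result. Of the endothelial genes, 3 of 12 (25.0%, against 12.0% of all tested genes) were lower, *Tie1* (−0.74, adjusted *P*=0.082), *Eng* (−0.72, adjusted *P*=0.0641) and *Cdh5* (−0.67, adjusted *P*=0.0735), and the median of the list was −0.44 with all libraries and −0.60 without wild-type replicate 3. With length and GC trends removed, 0 were called by limma (3 had an unadjusted *P* under 0.05) and the median was −0.28. Without that library, the median of the contractile genes (−0.45) thus lay no further below 0 than the endothelial one. The difference between the lists was not tested, nor was the part of vessel or heart content in the values of the contractile genes.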

How the data were processed

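The deposited table holds log2 RPKM, with 1 value per gene and library, and no other column was used. According to the study's methods, the authors trimmed, filtered and sub-sampled the reads, aligned them to GRCm38 and counted them per Ensembl gene. The submitters' processing notes name Trimmomatic 0.32, STAR 2.5.1a and featureCounts 1.5.1, and the methods name another STAR version. The labels describe sorted cells and Smart-seq2 libraries, whereas the methods describe whole dissected tissue and first-strand TruSeq libraries, which are followed here. Reads behind the values were recovered from the spacing of the deposited log2 values (prior count 0.5), with 82.7% of values whole to within 0.05 reads at GENCODE M21 gene lengths and the rest, where possible, after a search of gene lengths. Library sizes follow from the same spacing, and the error of a gene with 21 reads is larger than that of one with 6132. Whether the embryos came from separate litters is not given in the sources used here.

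Coordinates are those of GENCODE M21 (GRCm38). A gene entered the test when its mean over the libraries reached 0.5 RPKM. The test was made by limma 3.58.1 in R 4.3.3 (two-sided, with a variance trend, all 6 libraries, no added pseudocount), because the values are not counts. The Benjamini-Hochberg adjustment covered all tested genes, and a gene was called at 0.1 or below. The procedure was tested on simulated data. An exact permutation test was run on each contractile gene. The gene list, the other lists (SRF-myocardin regulators, other smooth muscle and actin cytoskeleton, cardiomyocyte, skeletal myotome, endothelium, pericyte, neural crest, pharyngeal endoderm and erythroid) and the tests were chosen with earlier results of these data known. Genes named were all contractile genes, *Pax9*, up to 3 called genes with the largest change in each list, *Myl7*, *Tnnt2* and *Actc1*, and the 5 genes nearest in pattern to *Acta2*, *Tagln*, *Cnn1* and *Myocd*. *Srf*, *Myl2*, *Tgfb1i1*, *Nppb* and *Tpm4* were named after their values were seen. Alternatives changed the pseudocount, filter, scaling, variance model, library weights, covariates, threshold and libraries. Leaving out wild-type replicate 3 together with the length and GC trends was added after seeing the data.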

Additional observations from a re-analysis of the deposited data

How the results depend on the processing

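The comparisons rest on 3 embryos a group, and on 21 to 67 reads per library for *Tagln* and 30 to 139 for *Lmod1*. The deposited log2 values leave the authors' sub-sampling in place. Values below are log2 fold changes of *Pax9*-null over wild-type or counts of called genes, and the cause of a change was not tested unless it follows from the setting.

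With the cardiomyocyte covariate, the direction turned for *Acta2* (−0.0066), *Cnn1* (−0.22) and *Myocd* (−0.35). Without wild-type replicate 3 and with length and GC trends removed, it turned for *Acta2* (−0.38), *Tagln* (−0.24), *Cnn1* (−0.43) and *Myocd* (−0.36). With those trends removed and all libraries it turned for *Cald1* (0.013), and with library weights for *Lmod1* (0.12) and *Myl9* (0.20). With 1 library left out at a time, the ranges were −0.22 to 1.05 for *Acta2*, −0.13 to 0.71 for *Tagln*, −0.45 to 1.09 for *Cnn1*, −0.27 to 0.00086 for *Cnn2*, −0.54 to 0.74 for *Myocd*, −0.93 to 0.16 for *Lmod1* and −0.76 to 0.23 for *Myl9*. *Mylk* stayed below 0 throughout (−0.83 to −0.65). The median of the 9 genes ranged from −0.45 (without wild-type replicate 3) to 0.23 (without wild-type replicate 1), and was 0.20 with library weights and −0.36 without wild-type replicate 3 and with length and GC trends removed.

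Of the 9 genes, 1 was called in the main comparison. The count was 0 above a mean of 5 RPKM, where *Mylk* is not tested, 0 with length and GC trends removed (by limma, with 0 at an unadjusted *P* under 0.05), 0 with the replicate block, 3 with the covariate, and 0 without wild-type replicate 3 and with the trends removed (5 at an unadjusted *P* under 0.05). Leaving out 1 library gave 0 (without *Pax9*-null replicate 1 or 3 or wild-type replicate 1) to 3 (without wild-type replicate 3). Over all tested genes, 3611 in the main comparison, the count was 503 with the trends removed and 1377 with the replicate block. Leaving out 1 library gave from 175 (*Pax9*-null replicate 3) to 3578 (wild-type replicate 2), and 297 were called when wild-type replicate 3 and the trends were both removed.

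For the other lists, SRF-myocardin regulators (3 called) gave 1 above 5 RPKM and 0 with trends removed, with or without wild-type replicate 3, and 0 to 3 with 1 library left out. Other smooth muscle and actin cytoskeleton genes (10) gave 0 with trends removed, with or without wild-type replicate 3, 3 with the replicate block, 5 with no variance trend, 1 at a threshold of 0.05, and 0 to 9 with 1 library left out. Cardiomyocyte genes (0) gave 1 with a pseudocount of 1 RPKM, 14 with the covariate, 1 without wild-type replicate 3 and with trends removed, and 0 to 8 with 1 library left out. The covariate is the mean of these same genes, so the count of 14 is circular and is not read as a result. Myotome genes (1) gave 0 above 5 RPKM, with trends removed (with or without wild-type replicate 3), with no variance trend and at 0.05, and 0 to 1 with 1 library left out. Endothelial genes (3) gave 0 with trends removed (with or without wild-type replicate 3) and at 0.05, 1 with the replicate block and 1 with no variance trend, and 0 to 3 with 1 library left out. Pericyte genes (1) gave 0 with trends removed, with or without wild-type replicate 3, and 0 to 1 with 1 library left out. Neural crest genes (3) gave 0 with trends removed, with or without wild-type replicate 3, 1 with the replicate block, and 0 to 3 with 1 library left out. Pharyngeal endoderm genes (0) gave 1 with a pseudocount of 0.1 or 1 RPKM, 1 with no variance trend and 1 with library weights, and 0 to 1 with 1 library left out. Erythroid genes (2) gave 1 with quantile normalization, the replicate block, no variance trend or the covariate, 5 with library weights, 0 with trends removed (with or without wild-type replicate 3) and at 0.05, and 0 to 8 with 1 library left out.

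Genotypes share replicate numbers 1 to 3, and deviations of same-numbered libraries from their group means correlated at −0.02, −0.17 and 0.26. With 3 libraries a group, these values cannot tell whether the numbers pair the embryos. With the replicate block, *Mylk* had an adjusted *P* of 0.11 (limma).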

Other observations

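Marker genes of other tissues of the dissected region were measured as in the report, in which 12.0% of all tested genes were called lower. With length and GC trends removed, 0 genes of the lists below were called by limma, and 2 pericyte, 3 neural crest and 1 myotome genes had an unadjusted *P* under 0.05. Of 4 tested pericyte genes, *Pdgfrb*, the receptor through which mural cells are recruited, was called lower (−0.83, adjusted *P*=0.0414, limma), and the median of the list was −0.36. Neural crest genes split, with *Ngfr* (−0.69, adjusted *P*=0.0372) and *Sox10* (−0.59, adjusted *P*=0.0828) lower and *Twist1* (0.35, adjusted *P*=0.0399) higher, among 8 tested. Of 4 tested genes of the skeletal myotome, *Myh3*, an embryonic myosin heavy chain, was called lower (−1.82, adjusted *P*=0.0728). Its groups overlapped, and it was not called without wild-type replicate 3 (adjusted *P*=0.136, limma).

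All 8 erythroid genes had fold changes above 0, with a median of 0.58, and *Hbb-bh1*, an embryonic globin, was among those called higher (0.78, adjusted *P*=0.067). With length and GC trends removed, 2 of the 8 were below 0, the median was 0.32 and *Hbb-bh1* had −0.05 (adjusted *P*=0.899). Their summed RPKM was 4905, 2643 and 4467 in the *Pax9*-null libraries and between 2405 and 2502 in the wild-type libraries. No gene of the pharyngeal endoderm list was called by limma (2 of 8 had an unadjusted *P* under 0.05), with a median of 0.06. For these lists, wild-type replicate 3 was not at least 1 log2 unit below every other library in any gene.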
